A study of Arabidopsis thaliana with 6 samples.

Results

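The class I homeodomain-leucine zipper (HD-Zip I) factors described here are 6 Arabidopsis transcription factors with a link to abscisic acid (ABA), namely HB-7 (AT2G46680), HB-12 (AT3G61890), HB5 (AT5G65310), HB6 (AT2G22430), HB-1 (AT3G01470) and HB20 (AT3G01220). They were taken by locus, that is by the gene-model identifier before the first dot. The loci were chosen with earlier results of these data known. The 6 loci have 8 features on the array, of 35986 features and 27981 loci in all, since HB-7 and HB5 have a second gene model each. Transcript levels were measured in germinated Col-0 seeds at radicle protrusion, on 3 arrays of seeds kept for 72 h in polyethylene glycol (PEG) at -2.5 MPa and on 3 arrays of untreated seeds frozen at that stage. PEG withholds water from the seeds, and this treatment re-establishes desiccation tolerance (DT). The PEG incubation took place in the dark at 20 °C, whereas untreated seeds had germinated in constant white light at 22 °C, and the effects of water stress, light, duration and temperature cannot be told apart. All seeds were wild type. The labels call the 3 replicates of a group biological, and the study's methods describe bulk harvests from several plants, so that an array stands for a pool of many seeds.

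HD-Zip proteins are found in plants. The homeodomain binds DNA, and the leucine zipper next to it joins the proteins in pairs, without which they do not bind. Class I members are known for adjusting growth to water supply and light. ABA itself acts through PYR/PYL receptors, which inhibit clade A protein phosphatases 2C (PP2C) and so release SnRK2 kinases. In vegetative tissue, HB-7 and HB-12 are known as genes induced by water deficit and ABA, whose proteins raise PP2C transcripts and so damp the ABA signal. HB5 is known to enhance ABA responses in seedlings, whereas HB6 binds the phosphatase ABI1 and lowers ABA sensitivity. HB-1 acts in leaf and hypocotyl growth, and HB20 has been tied to the ABA sensitivity of seeds.

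The deposited values are log2 expression per feature, with array medians between 4.81 and 4.97. Between 38.2 and 41.6 % of the features lay under 4 on an array, and such values were set to 4, the floor of the study's array methods. Germinated seed was recognisable on all arrays by the glyoxylate cycle genes ICL (11.82, 11.84 and 11.91 on the PEG arrays, 11.61, 11.12 and 11.74 on the untreated arrays) and MLS. EPR1, an extensin-like gene of the endosperm, had 7.10, 6.46 and 6.47 on the PEG arrays, against 7.69, 7.60 and 7.66 on the untreated arrays (log2 fold change -0.98, adjusted p = 0.029). The flower genes AG and AP3 lay under the floor on all 6 arrays, while the flower gene PI had 2.18 to 2.63 on the PEG arrays and 4.08 to 4.55 on the untreated arrays. The seed storage genes OLEO1 and CRU3 had also been listed as markers of germinated seed. OLEO1 was near the floor on the untreated arrays (4.56, 4.46 and 4.15), against 10.95, 10.03 and 9.97 on the PEG arrays. OLEO1 and CRU3 rose by 5.92 and 5.10 on the log2 scale, and their part in the results on the HD-Zip genes was not tested. Among the arrays, untreated replicate 2 had the lowest mean correlation with its group (0.983, against 0.986 to 0.989 for the others), and values that rest on it are given with and without it. In bulk seeds, fewer cells of a type and less RNA per cell cannot be told apart.

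No member met both limits, an adjusted p of at most 0.01 together with a log2 fold change of at least 2 in either direction. The study gives these limits for its ABA arrays and does not say whether p was adjusted. Of all loci, 2.72 % met both limits (limma with Benjamini-Hochberg adjustment over all features). At any fold change, 2 of the 6 had an adjusted p of 0.01 or less, HB-1 and HB20, both lower after PEG, where 14.7 % of all loci passed in either direction and 8.09 % with lower levels. At an unadjusted p under 0.05 there were 4, with HB5 and HB6 added, where 35.2 % of all loci had such a p. The PEG and untreated arrays did not overlap in these same 4 genes, as was the case for 38.8 % of all loci and for 67.5 % of the loci above the floor on at least 3 arrays, of which 25.6 % passed on p at any fold change. The median log2 fold change of the 6 was -0.65, beside 0.00 over all loci. HB-7 lay under the floor on all 6 arrays, like 38.5 % of all loci, and HB-12 exceeded it on 2 untreated arrays only. Thus 2 genes fell, HB5 and HB6 did not pass, and HB-7 and HB-12 were at the limit of detection.

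**Figure D1:**
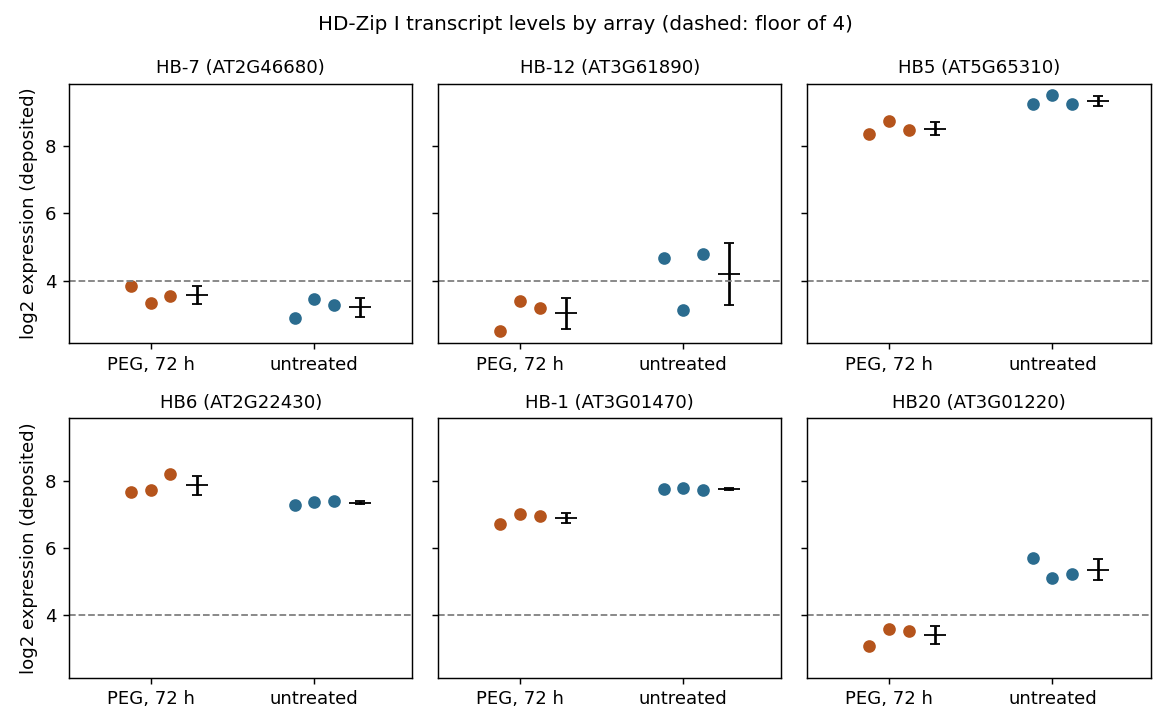
Deposited log2 expression of the 6 HD-Zip I genes, with 1 point per array, PEG (72 h) at the left and untreated at the right of each panel; bars give mean and SD of 3 arrays, and the dashed line is the floor of 4. HB5, HB-1 and HB20 are lower and HB6 is higher on all PEG arrays than on any untreated array, while HB-7 stays under the floor throughout.

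HB-7 and HB-12 form a closely related pair. HB-7 had 3.85, 3.34 and 3.55 on the PEG arrays, against 2.90, 3.45 and 3.27 on the untreated arrays. All 6 values lie under 4, and the groups overlap. Both features of HB-7 hold identical values, so they are 1 measurement. A level that stays under the floor has only an upper bound, and no fold change is given for HB-7. Hence a response of this gene was not detectable on these arrays, which does not show that it is absent.

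HB-12 had 2.50, 3.40 and 3.19 on the PEG arrays, against 4.68, 3.14 and 4.79 on the untreated arrays. It was thus under the floor in all PEG seeds and above it in untreated replicates 1 and 3. The groups overlap through untreated replicate 2. With the floor, the log2 fold change was -0.49 (SE 0.24, 95 % interval -1.12 to 0.15, adjusted p = 0.23). The floor understates the difference, which was -1.17 without it (adjusted p = 0.058), while a floor of 5 gave 0.00. The value also turns on untreated replicate 2, without which it was -0.73 with an adjusted p of 0.0047. Over the other settings the adjusted p was 0.030 to 1, and none passed. PEG replicates 2 and 3 lay above untreated replicate 2, though all 3 of these values are under the floor.

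HB5 had 8.35, 8.75 and 8.47 on the PEG arrays, against 9.27, 9.51 and 9.26 on the untreated arrays. All PEG values lie under all untreated values. The means were 8.53 ± 0.21 in PEG seeds and 9.34 ± 0.14 in untreated seeds (SD, n = 3 each). The log2 fold change was -0.82 (SE 0.14, 95 % interval -1.19 to -0.45), and its adjusted p of 0.016 missed the limit of 0.01. It met the limit without the floor (0.0045) and when features at or under the floor on most arrays were left out of the fit (0.0011), and over all settings it was 2.5e-09 to 0.064, the highest without PEG replicate 3. The second gene model of HB5, AT5G65310.2, had 7.73, 7.96 and 8.03 on the PEG arrays, against 8.46, 8.46 and 8.55 on the untreated arrays. Its groups do not overlap either (log2 fold change -0.58, SE 0.09, adjusted p = 0.013).

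HB6, the counterpart of HB5 in ABA signalling, had 7.67, 7.73 and 8.19 on the PEG arrays, against 7.29, 7.37 and 7.41 on the untreated arrays. It was the only member whose PEG values all lie above the untreated values. PEG seeds averaged 7.87 ± 0.29 and untreated seeds 7.36 ± 0.06 (SD, n = 3 each). The log2 fold change of 0.51 (SE 0.16, 95 % interval 0.07 to 0.94) did not pass, with an adjusted p of 0.089 (0.0025 to 0.23 over the other settings, the highest without untreated replicate 1). PEG replicate 3 was the highest of the arrays. Without it the change was 0.34, with an adjusted p of 0.025.

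HB-1 fell after PEG. It had 6.72, 7.00 and 6.96 on the PEG arrays, against 7.75, 7.78 and 7.74 on the untreated arrays. The untreated arrays lie within 0.02 (SD) of their mean of 7.76, and the PEG arrays, with a mean of 6.89 ± 0.16 (SD, n = 3), are clearly apart from them. The log2 fold change was -0.87 (SE 0.09, 95 % interval -1.10 to -0.63, adjusted p = 0.0040). These values lie well above the floor, and neither quantile normalization nor centring removed the call (adjusted p = 1.5e-07 to 0.041 over all settings, the highest with a replicate block). Leaving out any 1 of the untreated arrays removed it (adjusted p = 0.023, 0.020 and 0.022 for replicates 1, 2 and 3). So did leaving out PEG replicate 2 (0.014) or 3 (0.019), though the change stayed between -0.92 and -0.78. With features at or under the floor on most arrays also left out of the fit, HB-1 passed each time (adjusted p = 0.0012 to 0.0019). The feature AT3G01472.1 holds exactly the values of HB-1 on all 6 arrays, and these loci cannot be told apart here. In the TAIR10.1 gene table HB-1 also overlaps MBD9, AT3G01035 and AT3G01475, and HB20 overlaps AT3G01210, and probes shared with these genes were not looked for.

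HB20 fell as well, and it had the largest change among the 6. It had 3.10, 3.60 and 3.54 on the PEG arrays, against 5.71, 5.13 and 5.24 on the untreated arrays. All PEG values thus lie under the floor and all untreated values above it. With the floor, the log2 fold change was -1.36 (SE 0.17, 95 % interval -1.82 to -0.90, adjusted p = 0.0074), which understates the change. Without it the difference was -1.95. The call depends on the floor and the scaling, since a floor of 5 gave -0.36 (adjusted p = 0.28), quantile normalization an adjusted p of 0.011 and centring of the arrays 0.012 (4.6e-10 to 0.28 over all settings). Leaving out untreated replicate 2 (0.016) or 3 (0.029) also removed it, as did leaving out any of the PEG arrays (0.033, 0.035 and 0.035 for replicates 1, 2 and 3).

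To find whether the members changed unequally, the difference between 2 members was taken within each array, which cancels a shift common to both. All 15 pairs were compared with an exact two-sided permutation test, for which 3 arrays against 3 cannot give a p under 0.1. The PEG and untreated arrays did not overlap in 10 pairs, of which 8 hold a gene at the floor on all PEG arrays (HB-7, HB-12 or HB20) and 2 do not, HB5 with HB6 and HB6 with HB-1 (each with exact p = 0.1, or 0.15 after Benjamini-Hochberg adjustment over the 15 pairs). HB5 minus HB6 was 0.68, 1.02 and 0.27 on the PEG arrays, against 1.97, 2.14 and 1.85 on the untreated arrays. This is a shift of -1.33 on the log2 scale, seen on all 3 PEG arrays. HB6 minus HB-1 was 0.96, 0.73 and 1.23 on the PEG arrays, against -0.46, -0.41 and -0.34 on the untreated arrays, a shift of 1.37. HB6 minus HB20 shifted by 1.87 in the same direction. By contrast, HB5 minus HB-1 was 1.64, 1.75 and 1.51 on the PEG arrays and 1.51, 1.73 and 1.51 on the untreated arrays, a shift of 0.05 (exact permutation p = 0.7). The groups overlap in this pair. The other HB5 feature, AT5G65310.2, gave 1.01, 0.96 and 1.07 on the PEG arrays, against 0.70, 0.68 and 0.81 on the untreated arrays, a shift of 0.28 with no overlap (exact permutation p = 0.1), so that the pair depends on the feature of HB5. The shift of HB-1 minus HB20 was 0.49 and, like all pairs of HB20 and HB-12, rests on a gene held at the floor in PEG seeds. The 5 pairs with HB-7, which is constant at the floor, only restate the change of the other gene. The pairs of HB6 with HB5, HB-1 and HB20 are no separate test either. On all PEG arrays HB6 was higher, and the other gene lower, than on any untreated array. Their differences therefore could not overlap, and these pairs add only the size of the shift. HB-12 minus HB6 could not overlap either, since with the floor no PEG value of HB-12 exceeded an untreated one.

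**Figure D2:**
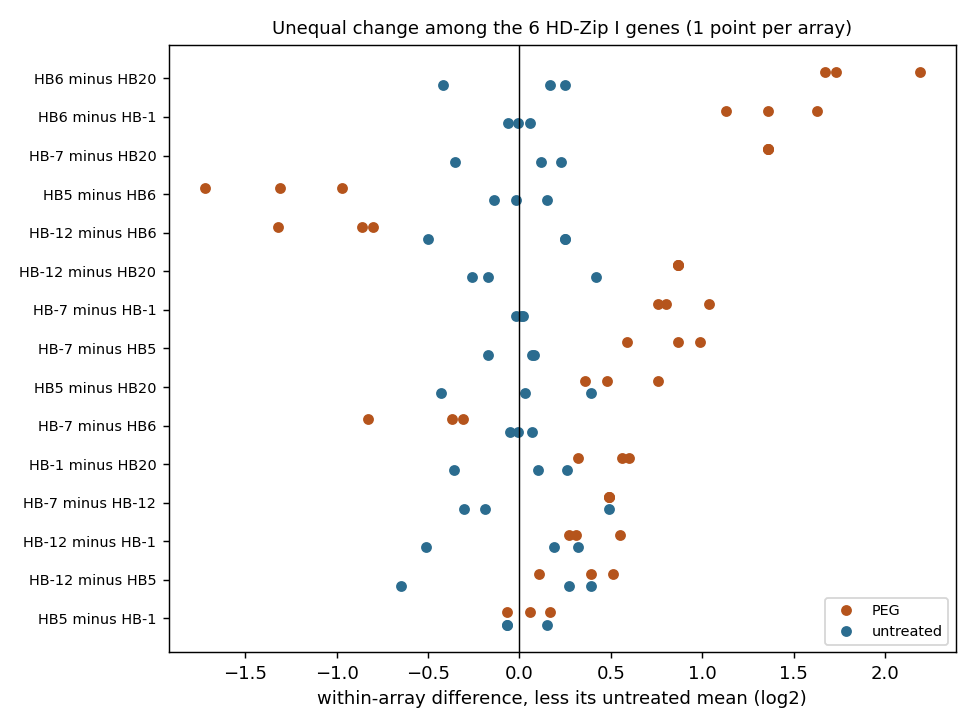
Within-array differences between the 6 HD-Zip I genes on the log2 scale with a floor of 4, each less its mean in untreated seeds, with 1 point per array (PEG above, untreated below in each row). The pairs of HB6 with HB20, HB-1 and HB5 shift by 1.87, 1.37 and -1.33, and their lack of overlap follows from the single genes. HB5 minus HB-1 shifts by 0.05 with the HB5 feature drawn and by 0.28 with the other.

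For each member, the other loci with the most similar pattern over the 6 arrays were sought among loci above the floor on at least 3 arrays (16057 to 16058 candidates). Likeness was the root mean square difference after the mean of each feature was subtracted, so that it holds the change with PEG and the scatter of single arrays together. The nearest to HB5 were AT4G16141, a GATA17-like gene, at 0.038, the calcium-dependent protein kinase CPK4 at 0.067 and AT3G57070 at 0.069. For HB6 they were AT2G33051, a long non-coding RNA, at 0.027, WRKY50 at 0.046 and RSL1 at 0.048, the last 2 being transcription factors. HB-1 matched AT3G01472, at 0.000 since the values are the same, then AT1G04295 at 0.035 and AT3G05280 at 0.040. HB20 was closest to XTH7, a xyloglucan endotransglucosylase/hydrolase, at 0.016, to UXS6, a UDP-xylose synthase, at 0.040 and to the receptor-like protein RLP22 at 0.061, a likeness that rests on its 3 untreated arrays, since all PEG values are held at the floor. HB-12 was closest to PLDALPHA3 at 0.039, AT5G60335 at 0.043 and FLP at 0.057, a likeness that rests on its 2 arrays above the floor. None is given for HB-7, which has no pattern at the floor. These are descriptions over 6 arrays in 2 groups, in which all genes with a similar change lie close together.

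Of the other 11 class I genes, 6 lay at or under the floor on all arrays (HB21, HB22, LMI1, HB52, HB53 and HB54), and HB40 exceeded it on 1 array. HB23 fell to under the floor on all PEG arrays, against 4.96, 4.96 and 4.81 on the untreated arrays (adjusted p = 0.00095, log2 fold change -0.91, SE 0.05). The floor sets this value, which was -1.59 without it and 0.00 with a floor of 5 (adjusted p = 1), where the call was lost. HB23 was the only one of the 11 to pass at any fold change. HB3 had 4.95, 4.67 and 5.11 on the PEG arrays, against 5.72, 6.21 and 5.95 on the untreated arrays (log2 fold change -1.05, adjusted p = 0.017). HB16, the close relative of HB6 and HB5, had -0.58 (adjusted p = 0.082), and HB13, a relative of HB20, had -0.41 (adjusted p = 0.19). Over all 17 class I genes, 1 had a higher mean after PEG, 9 had a lower mean and 7 were at the floor on all arrays. Over all loci, the counts were 8343 higher, 8875 lower and 10763 at the floor. HB6 was therefore the only class I gene with a higher mean after PEG once the floor was set. Values under the floor were not compared for the genes that stayed under it.

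**Figure D3:**
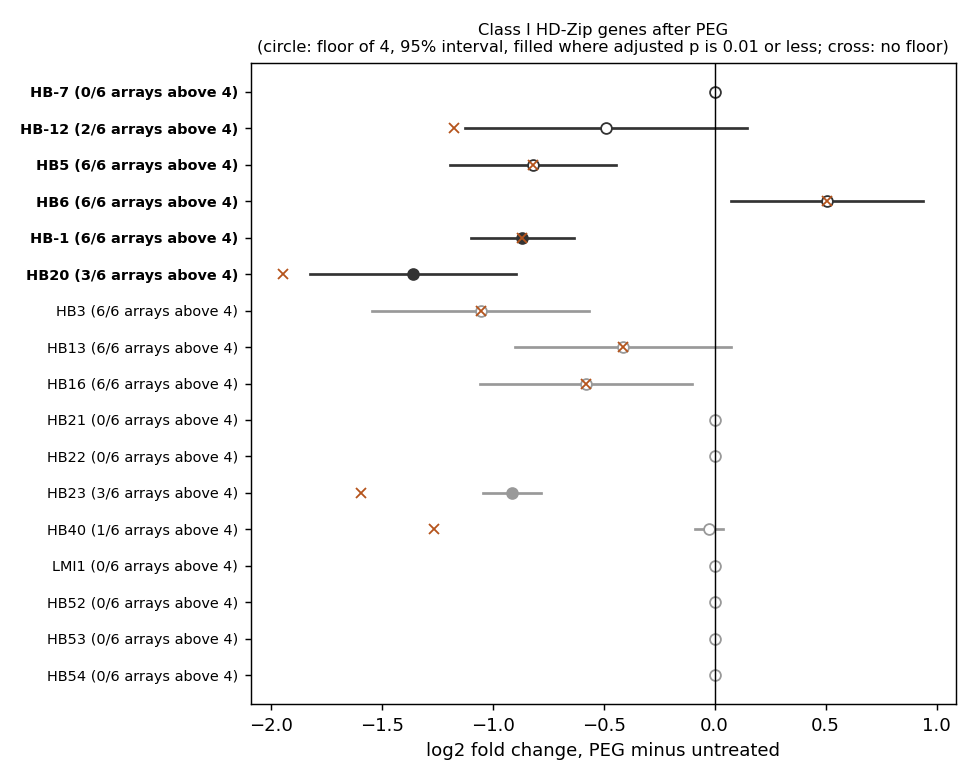
Log2 fold change (PEG minus untreated) of the 17 class I HD-Zip genes, the 6 members in bold at the top; circles and 95 % intervals are from limma with a floor of 4 and filled where adjusted p is 0.01 or less, crosses are the differences without the floor, left out for genes under it on all arrays. HB20, HB-1 and HB23 are filled and lower, and HB6 is the only gene to the right of 0 with the floor.

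In the other HD-Zip classes, 2 of 10 class II genes passed at any fold change, and both were lower. HAT1, a class II factor of brassinosteroid and shade responses, fell to under the floor on all PEG arrays, against 5.82, 5.77 and 5.73 on the untreated arrays (log2 fold change -1.78, adjusted p = 8.0e-05, or -2.92 without the floor and -0.78 with a floor of 5). HAT2, induced by auxin, had -0.73 (adjusted p = 0.0083, but 0.022 after centring of the arrays and 0.0092 to 0.037 with 1 array left out). With features at or under the floor on most arrays also left out, HAT2 passed each time (0.0013 to 0.0059). None of the 5 class III genes passed by limma (1 at an unadjusted p under 0.05), and PHB, a regulator of leaf polarity, came closest with 0.64 (adjusted p = 0.015). Likewise none of the 16 class IV genes passed by its leading feature, the one with the highest mean (4 at an unadjusted p under 0.05). Another feature of HDG2, AT1G05230.2, did pass (log2 fold change -1.02, adjusted p = 0.0059), while the leading one had -0.97 (adjusted p = 0.028). With the floor of 4, HB20 had the largest fold change of the 17 class I genes, and HAT1 that of all 48 HD-Zip genes.

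Genes tied to the 6 factors were taken from general knowledge of the pathway, with earlier results of these data known. Of the 9 clade A PP2C genes, 4 rose at any fold change and none fell, where 6.59 % of all loci rose. Of the 9, 8 lay above the floor on at least 3 arrays, and of all such loci 25.6 % passed in either direction. HB-7 and HB-12 are known to raise PP2C genes in vegetative tissue. Here HB-7 was under the floor on all arrays and HB-12 on all PEG arrays. A link to the PP2C genes was not tested. The number of PP2C genes that passed in either direction was 1 to 2 when 1 array was left out and 7 with a trended prior. It was 6 with features at or under the floor on most arrays left out of the fit. HAI2, which lay under the floor on all untreated arrays, stays in that fit only through its PEG arrays. AHG1, a phosphatase of seeds, had 9.02, 8.43 and 8.32 on the PEG arrays, against 3.55, 4.26 and 4.46 on the untreated arrays (log2 fold change 4.35, adjusted p = 0.0010). HAI3 rose by 2.84 (adjusted p = 0.0086), ABI2 by 1.58 (0.0051) and PP2CA by 1.58 (0.0038). With 1 array left out, the adjusted p was 0.019 to 0.039 for HAI3, 0.011 to 0.027 for ABI2 and 0.010 to 0.020 for PP2CA, while AHG1 passed each time (0.0031 to 0.0085). With features at or under the floor on most arrays also left out, HAI3, ABI2 and PP2CA passed each time as well (adjusted p = 4.6e-05 to 0.00026). HAI1 was under the floor on all 6 arrays. ABI1, the partner of HB6, had 6.81, 7.29 and 7.17 on the PEG arrays, against 7.93, 7.23 and 8.17 on the untreated arrays, which overlap (log2 fold change -0.69, adjusted p = 0.19).

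PYL5 and PYL8, ABA receptors that HB-7 and HB-12 are known to repress, fell by 1.31 and 1.12 on the log2 scale (adjusted p = 0.0066 and 0.0030, or 0.017 to 0.033 and 0.0071 to 0.018 with 1 array left out). RAB18, a dehydrin whose ABA response HB5 is known to enhance, had 11.35, 11.15 and 11.14 on the PEG arrays, against 5.06, 4.47 and 4.36 on the untreated arrays. IAA12, an auxin repressor gene under HB5, and PIF1, a light signalling factor upstream of HB-1, differed by -0.19 and 0.28 (adjusted p = 0.70 and 0.22). GA20OX1, a gibberellin synthesis gene that HB-12 represses, reached the floor on 1 untreated array only. HB6 protein is broken down through BPM adaptors of CUL3 ubiquitin ligases. Among the 8 genes of this complex, BPM2 rose, with 8.56, 8.16 and 8.26 on the PEG arrays, against 6.89, 7.17 and 6.78 on the untreated arrays (log2 fold change 1.38, adjusted p = 0.0059, or 0.013 to 0.030 with 1 array left out), and the other 7 did not pass. With features at or under the floor on most arrays also left out, PYL5, PYL8 and BPM2 passed in each leave-one-out fit (adjusted p = 0.00011 to 0.00067). Protein levels of the factors were not measured.

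**Figure D4:**
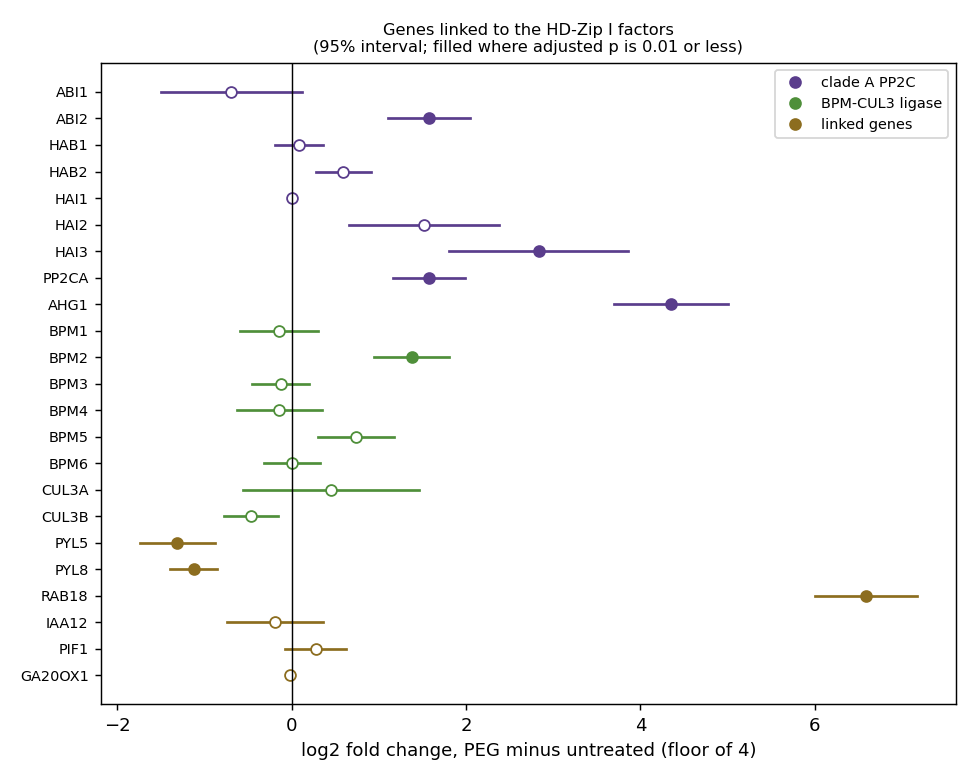
Log2 fold change (PEG minus untreated, floor of 4) with 95 % intervals for 9 clade A PP2C genes, 8 genes of the BPM-CUL3 ligase and 6 further genes linked to the HD-Zip I factors, filled where adjusted p is 0.01 or less. AHG1, HAI3, ABI2, PP2CA, BPM2 and RAB18 lie to the right, PYL5 and PYL8 to the left.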

How the data were processed

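Transcripts of 6 seed samples were measured on 1 microarray each. The authors deposited log2 expression values per gene-model feature. RMA is named in the submitters' processing notes, and the custom probe definition of the paper is stated for its ABA arrays only. No column belonged to other samples. Values under 4 were set to 4, as in the paper's methods. The groups were fitted without covariates in limma (version 3.58.1, R version 4.3.3), with p-values Benjamini-Hochberg adjusted over all 35986 features. The fit was tested on simulated data. The leading feature of a locus has the highest mean over the 6 arrays. Members and lists were chosen with earlier results of these data known. Named genes are all members, list genes that passed, their described list mates and the 3 nearest loci per member. All 79 listed loci matched the TAIR10.1 gene table, used for names and for the gene overlaps given for HB-1 and HB20. Summaries were made with Python 3.11.15 and scipy 1.17.1. The number of arrays limits the precision. The limma p-values set the difference between the groups against the spread between samples, which limma moderates over all features. In the main fit, 12085 of the 35986 features were at the floor on all 6 arrays and entered this moderation with no spread. The filter on low values left them out, but it also changed the number of features tested. The effect of the moderation alone was not tested. Alternatives were no floor or a floor of 5, a filter on low values, quantile normalization, median centring, a trended prior, other limits, a replicate block and leaving out each array.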

Additional observations from a re-analysis of the deposited data

How the results depend on the processing

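None of the 6 members met both limits under any setting except a log2 fold limit of 1, which called 1 (HB20). The number past the limit on p at any fold change was 2. It was 1 with a floor of 5, after quantile normalization or after centring of the arrays, 4 with a trended and robust prior and 0 to 1 when 1 array was left out. With a filter that kept only features above the floor on at least 3 of the arrays fitted it was 3, and 2 to 3 when 1 array was left out as well. HB20, HB23, HAT1 and HDG5 pass that filter only through their untreated arrays and with it were not tested where an untreated array was left out. HAI2 passes it only through its PEG arrays and was not tested where a PEG array was left out. The counts with the filter hold this limit. Of the other HD-Zip and linked genes, 11 passed. This was 17 without the floor, 21 with the filter or at an adjusted p of 0.05, 22 with the trended prior and 4 to 6 when 1 array was left out. With the filter added it was 14 to 19 (18 without PEG replicate 2). Over all features, 990 were called and 5649 passed on p, against 1684 and 9624 without the floor, 658 and 4659 with a floor of 5, 1064 and 10346 with the filter, 1041 and 11435 with the trended prior, 1057 and 10763 at an adjusted p of 0.05, 3675 called at a fold limit of 1, and 589 to 736 and 1880 to 2965 when 1 array was left out. Same-numbered arrays did not deviate together (r of -0.09, -0.02 and 0.04 for replicates 1, 2 and 3). With 3 arrays in a group, this cannot decide whether the numbers pair the samples. With the replicate number as a block, 0 members and 0 of the other genes passed, and 25 features were called. With block and filter, 3 members and 21 other genes passed. The number of member pairs that do not overlap was 9 without the floor and 12 with a floor of 5. It was 10 to 12 when 1 array was left out, which is no check, since leaving out an array cannot lower it. No called change turned its direction. The causes were not tested.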
